A study of Homo sapiens with 80 samples.

Results

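The 42 genes described here are the 39 HOX genes of the human genome that carry a cluster letter and a number, together with CDX1, CDX2 and CDX4. They were taken by symbol from the 43388 genes of the tables of TPM, a read level corrected for gene length and scaled to the same total in each library, and no expression value entered the choice. HOXA gave 11 members, HOXB 10, HOXC 9 and HOXD 9. RNA was sequenced from human pluripotent stem cells during differentiation to cardiomyocytes, started on day 0 with CHIR99021, which activates WNT signalling, and continued with IWP2, which blocks WNT secretion. A differentiation was called high or low purity by how many cells carried cardiac troponin T at day 16.

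In the multi-omic experiment all 56 libraries came from WTC11, an induced pluripotent stem cell line, and were made from poly(A) RNA. The 25 high purity libraries were wells of 1 differentiation at passage 52. The 31 low purity libraries were wells of 1 differentiation at passage 69. Wells numbered 4 in each class on days 0, 2, 4 and 6. There were 3 high and 4 low purity wells on day 8, 1 and 4 on day 10, 2 and 4 on day 13, and 3 and 3 on day 16. The class and day of each well are those of the TPM column names; the count columns carry the same names but hold other reads, and which table is named correctly is not known from the sources used here. Purity, passage and differentiation cannot be told apart there, and p-values measure only the spread between wells of a differentiation. In the RNA-only experiment 24 libraries were made from total RNA: H9, an embryonic stem cell line, at passage 55 (low purity) and 58 (high); IMR90-4, an induced line, at passage 55 (high) and 75 (low); and WTC11 at passage 69 (low) and 81 (high). Each of these 6 differentiations gave 1 library at each of 4 stages. Stage 1 was day 0, and stages 2, 3 and 4 were days 2, 4 and 6 for WTC11 and days 3, 5 and 7 for H9 and IMR90-4.

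HOX genes encode homeodomain transcription factors that give cells their position along the head-to-tail axis. They lie in 4 clusters and are, in the embryo, switched on in the order in which they lie, from the 3′ end (low numbers, anterior) to the 5′ end (high numbers, posterior). CDX1, CDX2 and CDX4 are homeodomain factors induced by WNT in the primitive streak, and they activate HOX genes of the middle of the clusters. In the heart, HOXB1 and other 3′ genes respond to retinoic acid and mark progenitors of the posterior second heart field, which contribute to atria and outflow tract.

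Promoter sequence is shown for 4 members that behaved differently in these data, so that their start regions can be read beside their values. They include all 3 members in which the CDX motif described below was found. HOXB1 was the member with the largest difference between the classes on day 4 on the log2(TPM + 1) scale used here, HOXA3 rose on day 2 in both classes, HOXD8 appeared late and in the low purity class only by the threshold used here, and HOXA9 did not reach 1 TPM in any library. Each run holds the 250 bases before a RefSeq start on GRCh38.p14, 5′ to 3′ on the gene's strand. Capitals mark TTTATG or its reverse complement CATAAA, the core letters of the CDX binding motif, searched on both strands. RefSeq entries were matched for 22 of the 42 members.
HOXB1, chr17:48531012-48531261, minus strand: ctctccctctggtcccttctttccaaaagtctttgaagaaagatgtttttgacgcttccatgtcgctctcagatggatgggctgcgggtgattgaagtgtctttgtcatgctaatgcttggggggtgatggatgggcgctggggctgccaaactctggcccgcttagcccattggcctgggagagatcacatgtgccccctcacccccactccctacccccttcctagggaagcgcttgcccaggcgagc
HOXA3, chr7:27152584-27152833, minus strand: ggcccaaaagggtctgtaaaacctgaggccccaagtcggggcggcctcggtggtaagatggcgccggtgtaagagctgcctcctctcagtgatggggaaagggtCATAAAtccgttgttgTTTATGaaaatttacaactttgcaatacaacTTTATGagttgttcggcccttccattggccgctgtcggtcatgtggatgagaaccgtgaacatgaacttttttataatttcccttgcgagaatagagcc
HOXD8, chr2:176129455-176129704, plus strand: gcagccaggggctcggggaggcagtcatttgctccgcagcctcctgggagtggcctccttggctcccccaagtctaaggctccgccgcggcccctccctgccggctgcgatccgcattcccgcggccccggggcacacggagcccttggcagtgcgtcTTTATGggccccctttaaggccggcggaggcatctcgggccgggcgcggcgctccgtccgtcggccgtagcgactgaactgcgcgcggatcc
HOXA9, chr7:27165538-27165787, minus strand: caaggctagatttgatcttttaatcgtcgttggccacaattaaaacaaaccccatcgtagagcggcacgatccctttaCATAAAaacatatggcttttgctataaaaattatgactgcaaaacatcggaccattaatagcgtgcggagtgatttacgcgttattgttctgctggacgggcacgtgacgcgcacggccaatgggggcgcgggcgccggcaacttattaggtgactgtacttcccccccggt
HOXA3 held 3 matches, at 146, 130 and 99 bases before the start, and HOXD8 and HOXA9 held 1 each, at 92 and 172 bases before it. No match of these letters stood in the HOXB1 window. Of the 29 entries of the 22 matched members 3 (10.3%) held the motif, close to the 10.6% of all 35116 promoter entries (250 bases before to 50 after the start, for members and background alike). These are the HOXA3, HOXD8 and HOXA9 entries shown, so the windows printed are not typical of the members. HOXA3 has 7 listed starts, and the 6 not shown held no match. The start shown is the farthest 5′ of them. It lies between the spans of HOXA6 (27145396-27150603) and HOXA7 (27153716-27157936). Which start gave the HOXA3 reads is not known from gene-level values. HOXC4 and HOXC5 share the same window. The nuclear receptor motif AGGTCA (reverse complement TGACCT), searched in the same way, was in 0 of these 29 entries and in 13.8% of all entries. A match is a description of letters, not a binding site. HOXB1 lies at chr17:48528526-48531001, HOXA3 at chr7:27106184-27152581, HOXD8 at chr2:176129694-176132695 and HOXA9 at chr7:27162435-27175180 (GENCODE v29, GRCh38), where the RefSeq start used for HOXA9 falls inside the GENCODE span.

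The HOXB and HOXC clusters also carry microRNA genes. The mature miR-10a-5p lies at chr17:48579904-48579926 on the minus strand, inside the span of HOXB4, and is shown because its host gene was the most abundant member on day 16 in both classes. miR-196a-5p (from MIR196A1 in HOXB and MIR196A2 in HOXC) and miR-196b-5p (from MIR196B in HOXA) are shown because they share a seed. Capitals mark the seed, bases 2 to 8.
miR-10a-5p: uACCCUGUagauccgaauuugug
miR-196a-5p: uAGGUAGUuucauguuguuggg
miR-196b-5p: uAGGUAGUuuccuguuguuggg

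Libraries of the multi-omic experiment held 6579715 to 18143597 reads and those of the RNA-only experiment 17990882 to 40357968. On days 0 to 6 the high purity wells were the deeper ones by their medians. For a member of the multi-omic experiment, 1 read was worth 0.00842 to 0.555 TPM (median 0.123), so values below about 1 TPM rest on few reads. Of the 42 members 25 had at least 1 TPM in at least 3 multi-omic libraries and were tested among 25664 genes. In the RNA-only experiment 24 members were tested among 23848 genes. The 18 members that did not meet the onset threshold in any group or differentiation were HOXA6, HOXA7, HOXA9, HOXA10, HOXA11, HOXB13, HOXC9 to HOXC13, HOXD1, HOXD3 and HOXD9 to HOXD13. Among them HOXD1 had the highest single library, 2.39 TPM in a low purity well of day 2, and the others stayed under 1 TPM. Differences below are on the log2(TPM + 1) scale after TMM scaling, with standard errors, from limma; this scale understates the change of low genes. A gene was called at an adjusted p under 0.05 (Benjamini-Hochberg over all genes tested) and a log2 difference of at least 1 in size.

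The day of onset was taken as the first day on which every well of a class had at least 1 TPM. In high purity wells 8 members had their onset on day 2 (CDX1, CDX2, CDX4 and HOXB1 to HOXB4 among them), HOXB5 followed on day 4 and HOXA13 on day 6. No further member, and none of HOXC or HOXD, met the threshold in that class by day 16. In low purity wells 10 members had their onset on day 2: the same ones plus HOXA2 and HOXA3. HOXB5 and HOXB6 followed on day 4. HOXB7, HOXB8, HOXC8 and HOXA13 did so on day 6, HOXB9 and HOXC6 on day 8, HOXC4, HOXC5 and HOXD8 on day 10, and HOXD4 on day 16. The totals were 10 members in the high and 22 in the low purity class. Along HOXB the low purity wells followed the order of the cluster from HOXB1 to HOXB9 (Spearman's rho 0.95 between gene number and onset day over 9 genes, a description only, since ties are many and all genes share the same wells). By this threshold HOXC ran the other way, from HOXC8 to HOXC4 (rho -0.95 over 4 genes). With 0.5 TPM the onset of HOXC4 moved to day 8, that of HOXC6. Low purity wells of day 2 already had 1 to 7 reads of HOXC4 each and none of HOXC8. In low purity H9 the order was not reversed: HOXC4 and HOXC5 reached 1 TPM at stage 3, and HOXC6 and HOXC8 at stage 4.

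**Figure D1:**
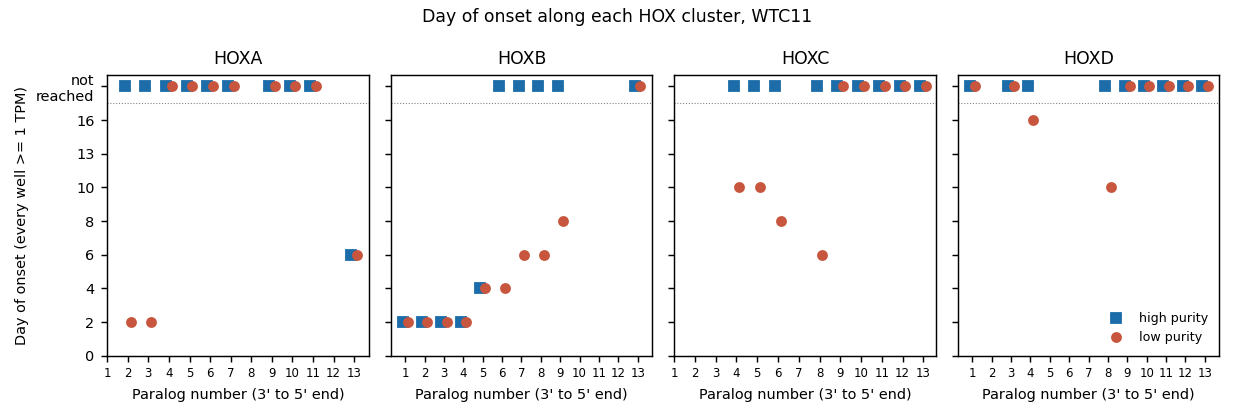
Day of onset (first day on which every well of a class had at least 1 TPM) against gene number in each HOX cluster, for high (squares) and low (circles) purity WTC11 wells of the multi-omic experiment; points above the dotted line did not reach it by day 16. In HOXB the high purity wells stop at HOXB5, and the low purity wells reach HOXB9 on day 8; HOXD4 follows on day 16.

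**Figure D2:**
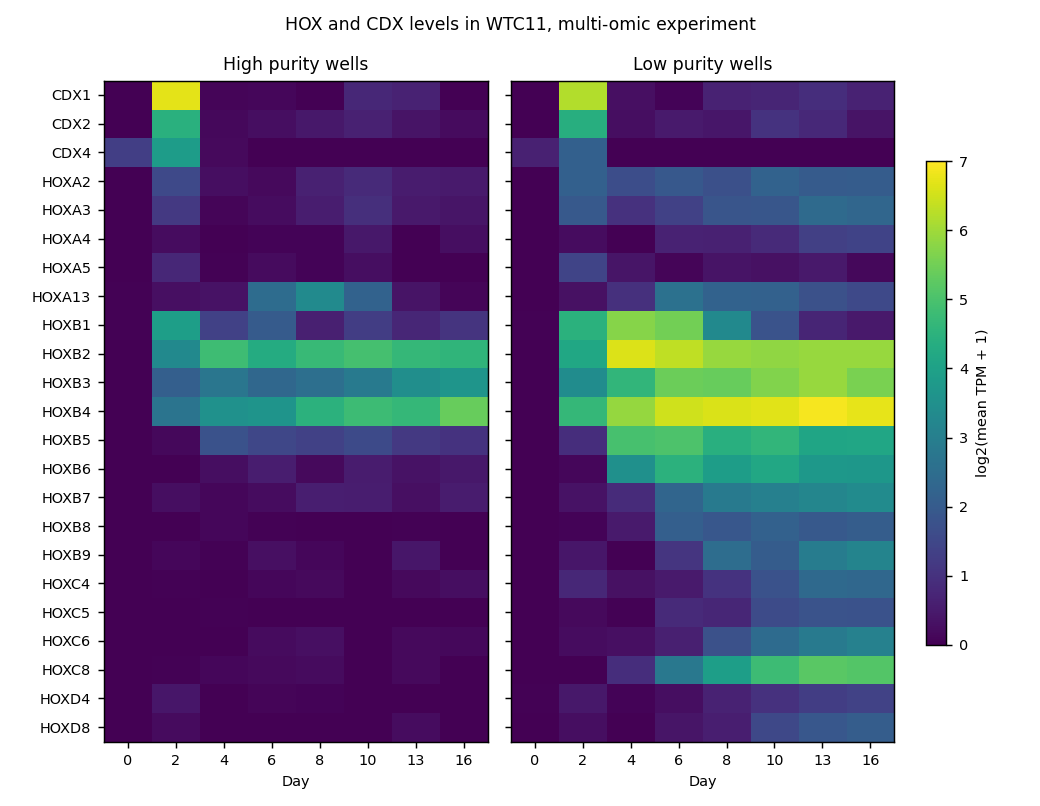
Mean level in the multi-omic experiment of members that met the onset threshold in any group, as log2(TPM + 1), genes in cluster order against day, with 1 panel per purity class. CDX1 and CDX2 are bright on day 2 alone in both classes. HOXB2 to HOXB6 and HOXC8 are brighter in the low purity class from day 4 or 6 on. HOXB1 is brighter in that class on days 4 and 6 but not on day 16.

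CDX genes gave a pulse on day 2, and CDX1 and CDX2 were found again later at low level. CDX1 (chr5:150166795-150184558) was at 0 on day 0 in all 8 wells and reached 103, 121, 98.9 and 93.5 TPM in the high and 67.6, 74.6, 75.9 and 73.4 TPM in the low purity wells on day 2. The classes did not overlap, high purity being above, with a ratio of means of 1.43. The difference (0.57 ± 0.14, adjusted p = 0.000981 by limma) was below the size asked for a call. By day 4 CDX1 had fallen by 6.68 ± 0.14 in high and by 5.92 ± 0.14 in low purity wells on the log2 scale, to 0.356 TPM or less. CDX2 (chr13:27962137-27971139), which is also a regulator of trophoblast and gut, showed the same pulse with overlapping wells. It was at 19.8, 21.8, 16.4 and 24.3 TPM in the high and 20.6, 21.2, 18.7 and 18.6 TPM in the low purity wells on day 2, and a difference was not found (0.11 ± 0.15, adjusted p = 0.634 by limma). On day 10 CDX2 was at 1.46, 0.644, 0.581 and 1.38 TPM in the low purity wells, from 10 to 23 reads, and at 0.568 TPM in the high purity well. On day 13 CDX1 was at 1.15, 0.8, 0.724 and 0.921 TPM in the low and 0.856 and 0.344 TPM in the high purity wells, from 8 reads or fewer.

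CDX4 (chrX:73447254-73455245) differed between the classes. On day 2 it was at 13.8, 14.7, 13.4 and 12.2 TPM in high purity wells, from 40 to 58 reads each. In low purity wells it was at 4.30, 1.92, 2.66 and 4.84 TPM, from 4 to 11 reads. No well overlapped, and the ratio of means was 3.94. CDX4 was already detected on day 0, at 2.21, 0.399, 1.81 and 1.36 TPM in the high and 0.637, 0, 0.52 and 1.10 TPM in the low purity wells. It was at 0 TPM in all high purity wells from day 6 and in all low purity wells from day 4. CDX4 was the only member called higher in the high purity class on day 2 (1.83 ± 0.17, adjusted p = 5.07e-12), and its rise from day 0 was also the larger there (difference of rises 1.2, adjusted p = 0.000197, both by limma). That second call was lost with 0.1 in place of 1 added to TPM (0.65, adjusted p = 0.575), with edgeR on recovered reads (0.94, adjusted p = 0.652) and without well 2 of the high purity class on day 0 (0.95). The day 2 call itself held in all of these settings.

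**Figure D3:**
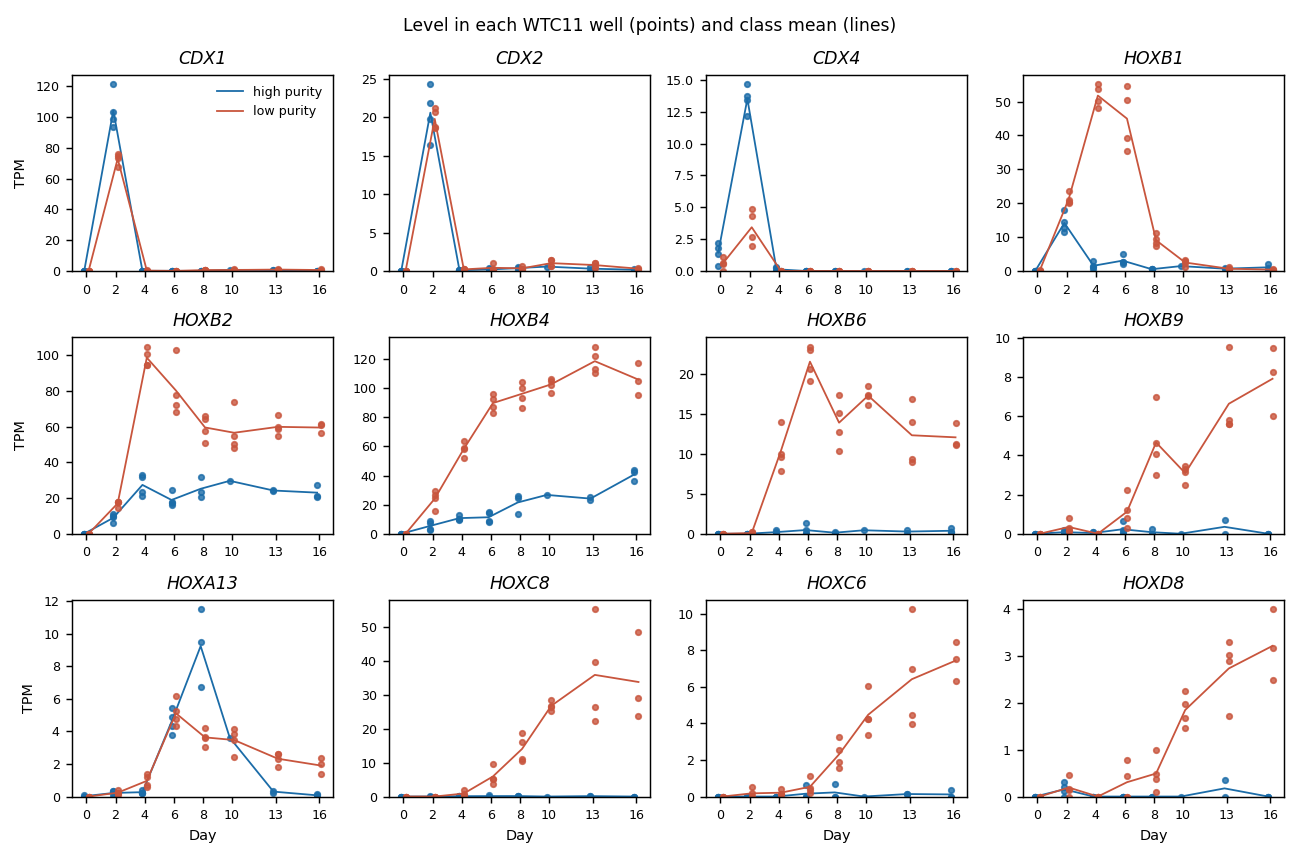
TPM of 12 members in every multi-omic well against day, with lines through the class means. CDX4 separates the classes on day 2 with high purity above; HOXB1 separates them on days 4 to 8, and HOXB6, HOXB9, HOXC6, HOXC8 and HOXD8 stay near 0 in high purity wells.

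From day 0 to day 2, 10 of the 25 tested members were called higher in high purity wells (9.66% of all genes rose and 7.04% fell) and 12 in low purity wells (11% rose and 6.87% fell). None was called lower. Apart from CDX4, the tested members had 4 reads or fewer in each day 0 well and passed the filter through later days. For them only a rise could be called, so the direction against day 0 follows from the filter. Besides the CDX genes these included HOXB1, HOXB2, HOXB4, HOXB3, HOXA2 and HOXA3 in both, with HOXA5 and HOXD1 in the low purity class (HOXD1 was not called without low purity well 4 of day 2, at 0.94). In high purity wells the 3 largest rises on the log2 scale were those of CDX1 (6.76 ± 0.14), CDX2 (4.47 ± 0.15) and HOXB1 (3.92 ± 0.23). The classes share no wells, but all days of a class are set against the same day 0 wells. On day 2 itself 3 members were called between the classes, against 5.32% of all genes (2.25% higher and 3.07% lower in high purity): CDX4, HOXB4 (-2.00 ± 0.21, adjusted p = 7.9e-11 by limma) and HOXB3 (-1.23 ± 0.11, adjusted p = 8.36e-13), the last 2 lower in the high purity class.

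HOXA2 and HOXA3, near the 3′ end of their cluster, were called higher on day 2 than on day 0 in both classes. HOXA3 was at 1.46, 0.728, 1.22 and 1.49 TPM in the high and 2.89, 2.49, 3.24 and 2.93 TPM in the low purity wells on day 2. On day 16 HOXA3 was still there in the low purity class, with 0.191, 0.381 and 0.359 TPM in the high and 5.73, 3.23 and 2.92 TPM in the low purity wells. HOXA4 stayed below 1 TPM until day 8 in all but 1 well, and reached 3.09, 1.04 and 0.897 TPM in the low purity wells of day 16. HOXA4 and HOXA3 share exon bases with neighbours, 31% of HOXA4 on the same strand, and the authors' setting for such reads is not given in the sources used here.

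HOXB1, the 3′ gene of its cluster and a marker of posterior second heart field progenitors, split the classes after day 2. On day 2 it was at 17.9, 11.6, 12.7 and 14.5 TPM in the high and 23.5, 21.0, 20.5 and 20.1 TPM in the low purity wells. On day 4 the high purity wells were down to 2.91, 1.26, 0.488 and 1.47 TPM, while the low purity wells had 50.3, 55.2, 53.6 and 48.0 TPM. So the direction from day 2 to day 4 was opposite: it fell by 2.73 ± 0.23 in high and rose by 1.19 ± 0.23 in low purity wells (adjusted p = 8.62e-14 and 2.63e-05 by limma). The ratio of means on day 4 was 33.8, and the log2 difference between the classes -4.42 ± 0.23 (adjusted p = 2.99e-20). A two-sided exact permutation test over the 8 wells of day 4 gave p = 0.0286, the smallest that 4 against 4 allows. HOXB1 was still at 35.5 to 54.6 TPM in low purity wells on day 6, then fell to 7.40 to 11.3 TPM on day 8 and 0.332 to 0.457 TPM on day 16. By day 16 its difference (0.62 ± 0.27, adjusted p = 0.0571 by limma) was no longer called, and the high purity wells were at 2.05, 0.252 and 0.922 TPM.

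HOXB2, HOXB3 and HOXB4 were the members above 10 TPM in every well of both classes on day 16. HOXB2 (chr17:48540894-48544989), known for hindbrain patterning, had 31.5, 21.4, 23.4 and 33.0 TPM in the high and 101, 94.3, 94.5 and 105 TPM in the low purity wells on day 4. On day 16 it had 27.3, 20.6 and 21.2 TPM against 61.5, 60.6 and 56.2 TPM. The low purity wells were above all high purity wells on every day from 2 to 16, with ratios of means from 1.90 to 4.24. HOXB4 (chr17:48575513-48580111), a factor known for expanding blood progenitors, was the most abundant member on day 16 in both classes. It was at 42.4, 43.6 and 36.1 TPM in the high and 117, 95.5 and 105 TPM in the low purity wells. Its separation was there on day 2, with 7.35, 2.40, 3.35 and 8.57 TPM against 27.0, 24.4, 15.7 and 29.3 TPM, and the ratio of means was largest on day 6, at 7.92. On day 16 HOXB3 was below HOXB2 and HOXB4 in both classes, with means of 11.5 TPM in the high and 46.9 TPM in the low purity wells. HOXB4 shares 17.1% of its exon bases with other genes on the same strand, among them HOXB3.

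From HOXB5 on, the cluster was almost confined to the low purity class by level. HOXB5 was at 2.82, 1.63, 2.32 and 2.74 TPM in the high and 28.6, 33.8, 30.4 and 27.3 TPM in the low purity wells on day 4. It stayed at 0.845 to 1.31 TPM against 15.4 to 17.9 TPM on day 16. HOXB6 (chr17:48595751-48604992) had 0.531, 0.177, 0.111 and 0 TPM in the high and 7.79, 9.61, 13.97 and 9.97 TPM in the low purity wells on day 4. On day 6 the low purity wells had 19.1, 20.6, 23.4 and 23.0 TPM, their highest. HOXB6 shares 16.6% of its exon bases on the same strand, with HOXB3 among its partners. HOXB7 and HOXB8 came next: on day 6 the low purity wells had 3.11 to 4.49 TPM of HOXB7 and 2.76 to 4.10 TPM of HOXB8. On day 16 HOXB7 had 0.804, 0 and 0.499 TPM in the high and 12.7, 8.39 and 6.81 TPM in the low purity wells. HOXB9 (chr17:48621159-48626356) came last, at 0, 0 and 0.239 TPM in the high and 4.07, 4.61, 3.00 and 6.96 TPM in the low purity wells on day 8. On day 16 no high purity well had a HOXB9 or HOXB8 read, and the low purity wells had 9.48, 8.26 and 6.00 TPM of HOXB9. Against a floor of 3 reads per library these are means at least 31.6-fold higher for HOXB9 and at least 20.2-fold higher for HOXB8.

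Summed over the cluster, HOXB RNA made 48.1 ± 8.67 TPM in the high and 273.5 ± 6.36 TPM in the low purity wells on day 4 (SD, n = 4 each). On day 16 it made 78.1 ± 6.57 and 261.8 ± 24.6 TPM (SD, n = 3 each). HOXB5 to HOXB9 held 5.77% of that sum in high and 15.2% in low purity wells on day 4, and 2.38% and 18.7% on day 16. The ranges over wells did not overlap on either day (5.07% to 6.34% against 13.8% to 16.9%, and 1.96% to 2.86% against 17.5% to 19.9%). The low purity wells therefore had more HOXB RNA and a larger 5′ part within it.

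HOXA13 (chr7:27193503-27200106), the 5′ end of the HOXA cluster and known for limb and hindgut ends, broke the order. It had its onset on day 6 in both classes, while HOXA6, HOXA7 and HOXA9 to HOXA11 between it and the 3′ genes stayed at 0.425 TPM or less in every multi-omic well. On day 6 it was at 4.88, 4.35, 5.41 and 3.77 TPM in the high and 6.17, 5.25, 4.31 and 4.74 TPM in the low purity wells, which overlapped. On day 8 the high purity wells were higher, with 6.75, 11.5 and 9.4995 TPM against 4.19, 3.63, 3.69 and 3.04 TPM. On day 16 the order was turned, with 0.0877, 0 and 0.136 TPM in the high and 2.36, 1.97 and 1.36 TPM in the low purity wells. It was the single member called higher in the high purity class on day 8 (1.32 ± 0.15, adjusted p = 1.05e-09 by limma) and was called lower there on day 16 (-1.45 ± 0.16, adjusted p = 4.02e-10). HOTTIP, the noncoding RNA next to HOXA13, was at 0.383 TPM or less in all these wells. Endothelial markers (5 genes) summed to 55.1 to 78.4 TPM in the high and 19.1 to 21.6 TPM in the low purity wells of day 8, amnion and surface epithelium markers (5 genes) to 25.1 to 41.1 and 6.05 to 7.34 TPM, and endoderm markers (4 genes) to 703.7 to 1414 and 173.8 to 310.3 TPM. Their part in the HOXA13 difference was not tested.

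HOXC genes were a late low purity feature. HOXC8 (chr12:54009106-54012362), a gene of the thoracic level in the embryo, had 0, 0, 0.535 and 0 TPM in the high and 5.28, 3.63, 5.14 and 9.66 TPM in the low purity wells on day 6. It went on to 25.1 to 28.6 TPM on day 10 and 48.6, 28.9 and 23.9 TPM on day 16 in low purity wells, from 186 to 594 reads each. No high purity well had a HOXC8 read on day 16, so the low purity mean was at least 126-fold higher against a floor of 3 reads per library. HOXC6 had 0, 0.348 and 0 TPM in the high and 8.48, 7.52 and 6.30 TPM in the low purity wells on day 16. HOXC4 had 0, 0.322 and 0.285 TPM against 6.04, 3.11 and 2.99 TPM. HOXC4 and HOXC6 share 17.8% and 15.7% of their exon bases on the same strand, with HOXC5 and each other among their partners. Reads may have been divided among these genes. HOXC5 shares 33.9%, with AC012531.2 as the partner listed for it. HOXC8 shares none. HOXC9, next to HOXC8, stayed at 0.922 TPM or less.

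HOXD was nearly silent. HOXD8 had no read in the high purity wells of day 16 and 3.98, 3.17 and 2.48 TPM in the low purity wells, at least 13-fold higher against the same floor. HOXD4 had 1.84, 1.05 and 1.87 TPM in the low purity wells of day 16 and no read in the high purity wells, but 80.5% of its exon bases are shared with other genes on its strand. HOXD1 had a small day 2 signal, at 1.08, 1.09, 0.803 and 2.39 TPM in low and 0.156 to 0.942 TPM in high purity wells. The HOXD sum was 5.52 ± 1.09 TPM in low purity wells on day 16 (SD, n = 3), against 48.0 ± 17.1 TPM for HOXC and 13.8 ± 6.05 TPM for HOXA.

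Day by day, the number of members called between the classes rose and nearly all of them were lower in the high purity class. On day 0 it was 0 of 25 by limma, with 1.07% of all genes called in either direction, 0.242% higher and 0.826% lower in high purity. At an unadjusted p under 0.05 there was 1 member, CDX4 (0.62 ± 0.17, adjusted p = 0.00846 by limma, higher in high purity); edgeR and DESeq2 on reads recovered from the TPM also gave 0. On day 4 it was 7, all lower (7.84% of all genes called, 3.62% higher and 4.22% lower): HOXB1, HOXB5 (-3.19 ± 0.21), HOXB6 (-3.17 ± 0.18), HOXB4 (-2.33 ± 0.21), HOXB3, HOXB2 and HOXA2. On day 6 it was 12, all lower (8.8% of all genes, 3.61% higher and 5.19% lower), led by HOXB6 (-3.93 ± 0.18, adjusted p = 4.22e-22 by limma). Day 8 gave 13, 12 of them lower (12.2% of all genes, 4.66% higher and 7.5% lower), led by HOXB6 (-3.56 ± 0.19) and HOXC8 (-3.55 ± 0.24). Day 13 gave 19 lower (10.8% of all genes, 4.55% higher and 6.23% lower), led by HOXC8 (-4.88 ± 0.28). Day 16 gave 19 lower (13.4% of all genes, 5.76% higher and 7.65% lower), led by HOXC8 (-5.15 ± 0.26, adjusted p = 5.83e-21 by limma), HOXB6 (-3.27 ± 0.21) and HOXB9 (-3.22 ± 0.22). The median over the tested members was 0, -0.21, -0.35, -0.69 and -1.52 on days 0, 2, 4, 6 and 16, while the median of all genes stayed between -0.025 and 0.01. HOXA4, HOXA5, HOXB6 to HOXB9, HOXC4 to HOXC6, HOXC8, HOXD1, HOXD4 and HOXD8 passed the filter for testing only through low purity wells. The direction of the member median, of these counts and of the interaction counts below therefore follows in part from that filter. On recovered reads edgeR called more members than limma on days 2 (6), 4 (15) and 8 (21). In bulk RNA, fewer cells that express a gene and less RNA per cell cannot be told apart.

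**Figure D4:**
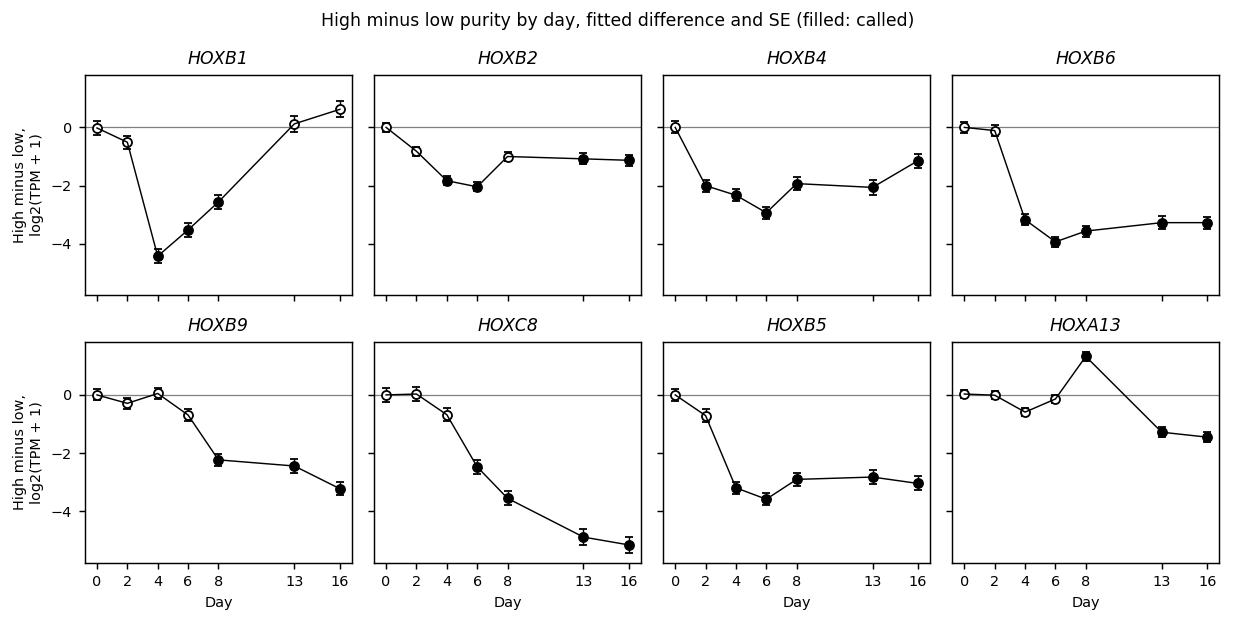
High minus low purity difference on the log2(TPM + 1) scale with its standard error (limma) against day, for HOXB1, HOXB2, HOXB4, HOXB6, HOXB9, HOXC8, HOXB5 and HOXA13; filled points were called. HOXB1 dips on days 4 to 8 and returns, HOXB6 stays low from day 4, HOXC8 and HOXB9 fall away late, and HOXA13 is above 0 on day 8 and below it on days 13 and 16.

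The change from day 0 was compared between the differentiations by an interaction term. By limma it was called for 3 members on day 2, CDX4 upwards and HOXB3 and HOXB4 downwards (3.22% of all genes, 1.65% up and 1.57% down). All other calls were downwards: 7 on day 4 (7.01% of all genes, 3.26% up and 3.74% down), 12 on day 6 (7.17%, 3.2% and 3.97%) and 19 on day 16 (13.4%, 5.46% and 7.99%). These counts rest on the log scale with 1 TPM added: on recovered reads edgeR called 0, 0, 1 and 1 and DESeq2 1, 3, 4 and 10. Most of these members had no read in any day 0 well, so for them the term nearly repeats the class difference of the day. Within the high purity class, HOXB1 to HOXB5 were called higher and CDX4 lower than on day 0 on day 4 (10.8% of all genes rose and 7.75% fell), with HOXA13 added on day 6 (13.1% and 10.4%). On day 16 it was 5 higher and CDX4 lower (19.4% and 16%). Without TMM scaling 4 were called higher, HOXB1 dropping out (0.93), and the share of all calls that were higher went from 54.8% to 45.6%. HOXB1 also dropped out on day 16 without well 1 (0.71) and on day 4 without well 1 (0.96), and CDX4 on day 4 without well 1 of day 0 (-0.95), all in the high purity class. Within the low purity class 8 were called higher on day 4 (12.8% of all genes rose and 9.35% fell), 13 on day 6 (15.9% and 11.8%) and 19 on day 16 (19.5% and 14.6%), and none lower. In both classes the tested members other than CDX4 were near 0 on day 0, so only a rise could be called for them. The lack of lower calls is therefore not a result. Without scaling the share of all calls that were higher moved from 55.9% to 67.9% in the high purity class (day 6). In the low purity class it moved from 57.8% to 68% (day 4) and from 57.4% to 70.1% (day 6). The upward share of interaction calls moved from 51.1% to 37.3% (day 2) and from 40.6% to 22.7% (day 16). In the high purity wells the 5 were HOXB4 (5.68 ± 0.22), HOXB2 (4.88 ± 0.16), HOXB3 (3.91 ± 0.12), HOXB5 (1.19 ± 0.22) and HOXB1 (1.09 ± 0.25).

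The other genes of the system were read from fixed lists. TALE homeodomain proteins (PBX, MEIS and PKNOX) bind DNA together with HOX proteins, and from day 0 to day 2, 5 of 8 were called higher and 1 lower in high purity wells, and 4 higher and 1 lower in low purity wells. MEIS1 went from 0.206 TPM or less on day 0 to 106 ± 16.8 TPM in the high and 191 ± 7.61 TPM in the low purity wells on day 4 (SD, n = 4 each). PBX3 was at 61.0 to 86.3 TPM in the high and 209.5 to 235.2 TPM in the low purity wells on day 8, and was the single cofactor called that day (-1.38 ± 0.11, adjusted p = 8.19e-14 by limma). On day 16 MEIS3 (-1.37 ± 0.13) and PBX3 (-1.28 ± 0.12) were called lower in the high purity class.

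Of 21 listed noncoding RNA genes of the clusters 6 were tested. HOTAIRM1, a noncoding RNA of the HOXA cluster, was called higher on day 2 in both classes and reached 8.89 to 16.9 TPM in the high and 20.8 to 26.3 TPM in the low purity wells. On day 16 it was at 0.983 to 2.32 TPM against 6.46 to 11.7 TPM (-1.91 ± 0.33, adjusted p = 5.78e-06 by limma). The gene of miR-10a, whose mature sequence is given above, had 3 reads or fewer in every high purity well of the multi-omic experiment, and 5 to 18 reads in the low purity wells of day 13. In the RNA-only experiment it had 31, 96 and 27 reads in low purity H9 at stages 2 to 4 and 8 reads or fewer in each other library, with 7 and 4 reads in high purity WTC11 at stage 2 and high purity IMR90-4 at stage 3. These are reads of its precursor transcript or of HOXB4, which overlaps it, and do not measure the mature microRNA. HOXB-AS1 went against the other 3 noncoding genes called on day 16: it was higher in the high purity wells, at 10.2 to 13.8 TPM against 3.10 to 7.39 TPM. Of the neighbours of the clusters and ParaHOX relatives, 6 of 10 were tested. EVX1, a primitive streak factor beside HOXA13, was called higher on day 2 in both classes (33.0 to 40.4 TPM in the high and 37.3 to 43.8 TPM in the low purity wells). On day 8 it was at 2.89 to 3.76 TPM in the high and 0.311 to 0.948 TPM in the low purity wells, a called difference (1.64 ± 0.16, adjusted p = 2.23e-11 by limma) in the same direction as HOXA13.

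Upstream signals were listed as 11 tested genes of the WNT, FGF, GDF and retinoic acid pathways. From day 0 to day 2, 8 were called higher in high and 7 in low purity wells. On day 4, 5 differed between the classes: CYP26A1, FGF17, FGF8 and WNT8A higher and WNT5A lower in the high purity class. CYP26A1, the enzyme that degrades retinoic acid, was at 194 to 255.3 TPM in the high and 24.6 to 31.6 TPM in the low purity wells on day 4 (2.91 ± 0.20, adjusted p = 3.53e-16 by limma). ALDH1A2, the enzyme that makes it, was at 14.5 to 29.4 TPM in the high and 37.2 to 44.2 TPM in the low purity wells on day 2, and at 0.618 to 1.40 and 27.1 to 41.6 TPM on day 16. Among 10 tested genes of the Polycomb and Trithorax systems, which hold HOX clusters silent or open, KDM6B, a demethylase of H3K27, rose from day 0 to day 2 in both classes and JARID2 fell. Between the classes 1 gene was called on day 4 (KDM6A, lower in high purity) and 1 on day 16 (JARID2, higher). Whether any of these genes moved the HOX genes was not tested.

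Markers of epicardial and stromal cells (WT1, TBX18, TCF21, LUM, COL1A1 and POSTN) also differed between the classes. None of the 6 was called between the classes on day 2; 4 were called on day 4, 5 on day 6 and all 6 on days 8, 13 and 16, each lower in high purity. Their summed level was 102 to 160.4 TPM in the high and 564.6 to 576.8 TPM in the low purity wells on day 4, and 267.9 to 330.4 and 3401 to 4352 TPM on day 16. On day 2 the sums were 11.5 to 14.4 TPM in the high and 15.4 to 17.2 TPM in the low purity wells, which did not overlap. HOXB4 and HOXB3 were called lower in high purity that day. Which of these differences came first was not tested. Of 6 cardiomyocyte markers 4 were called lower in high purity wells on day 4, and the direction turned by day 8: from then 5 were called higher in high purity wells, with sums of 8745 to 10630 TPM against 2065 to 3417 TPM on day 16. Paraxial mesoderm and tail bud are among the tissues in which CDX and 5′ HOX genes are active. Their markers summed to 199.8 to 262.8 TPM in the high and 261.9 to 272.4 TPM in the low purity wells on day 2. On day 6 these sums were 1.75 to 6.79 TPM in the high and 18.7 to 36.5 TPM in the low purity wells. Neural markers (PAX6, SOX1, NEUROG2 and ELAVL3) summed to at most 1.20 TPM on day 6, and SOX1 was at 0 in all 8 wells. What these cell types add to the HOX differences was not tested.

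No member was called between high and low purity at any stage of the RNA-only experiment (0 of 24 by edgeR's quasi-likelihood test with the line as block, n = 3 lines, and 0% of 23848 genes called). At an unadjusted p under 0.05 there were 0, 0, 1 and 3 members at stages 1 to 4, and DESeq2 also called 0. The 3 lines did not move together, so their values are given one by one. When H9 was left out, 2 members were called at stage 3, HOXB3 among them, both higher in high purity. Against stage 1, the 6 differentiations together had 21 of 24 members called higher at stage 2 (14.8% of all genes rose and 10.8% fell), 23 higher and CDX4 lower at stage 3 (20.5% and 15.7%), and 22 higher and CDX4 lower at stage 4 (23.4% and 16.2%, all by edgeR). Apart from CDX4, the tested members had 15 reads or fewer in each stage 1 library and passed the filter through later stages. Their direction against stage 1 therefore follows from the filter. These calls do not mean a rise in each differentiation. At stage 3 HOXA4 had 187 reads in low purity H9 and 7 or fewer in each other differentiation, and HOXC4 had 298 and 19 or fewer. Outside low purity H9, 5 to 11 members reached 1 TPM per differentiation.

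H9 had the widest gap. With the same threshold of 1 TPM, 21 members were reached by stage 4 in the low purity and 6 in the high purity differentiation. HOXB4 was at 29.3, 81.1 and 59.9 TPM at stages 2 to 4 in low and at 0.56, 2.20 and 6.42 TPM in high purity H9. HOXB1 was at 115.5, 100.6 and 17.5 TPM against 4.72, 5.92 and 18.45 TPM, with no gap in that direction left at stage 4. HOXA5, at 2.95 TPM or less in the WTC11 wells of the multi-omic experiment, reached 2.76, 15.2 and 14.5 TPM in low purity H9 and had no read in high purity H9. HOXB6 was at 8.03, 14.8 and 14.98 TPM against 0.0667 TPM or less. At stage 4 HOXB9 was at 7.27 TPM in low and 0.0232 TPM in high purity H9, and HOXC6 at 2.81 and 0 TPM. HOXB5 to HOXB9 held 6.92%, 12.1% and 25.2% of the HOXB sum in low purity H9 and at most 0.493% in high purity H9. At stage 3, 16 of 18 members with at least 1 TPM in any library were higher in low purity H9 by at least 1 on the log2(TPM + 1) scale. Epicardial and stromal markers summed to 230.8 TPM in low and 13.6 TPM in high purity H9 at that stage, while the 6 pluripotency markers summed to 258 and 508.6 TPM; the part of either was not tested. With 1 library each, these gaps have no replicate check.

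In WTC11 some 3′ genes went the other way at stage 3. HOXB1 was at 12.0, 1.08 and 4.24 TPM in low and 22.2, 10.8 and 4.28 TPM in high purity WTC11 at stages 2 to 4. HOXB4 was at 9.08, 5.97 and 9.22 TPM against 9.56, 16.2 and 16.5 TPM. No member was lower in high purity by at least 1 on the log2 scale at stage 3, and 3 were higher. The share of the 5′ part of HOXB had the same direction as in H9: HOXB5 to HOXB9 held 4.42%, 10.2% and 6.47% of the HOXB sum in low and 0.634%, 1.76% and 2.16% in high purity WTC11 at stages 2 to 4. HOXB9 had the widest gap of these at stage 3, at 1.10 TPM (96 reads) in low and 0.0542 TPM (3 reads) in high purity, while HOXB5 was at 0.13 and 0.462 TPM. Markers of other cells differed too. The 6 pluripotency markers summed to 1084 and 1059 TPM in low and 619.1 and 507 TPM in high purity WTC11 at stages 3 and 4, with SOX2 at 102.1 and 120.4 TPM against 24.2 and 20.6 TPM. The 4 neural markers summed to 3.94 and 5.88 TPM in low and 0.101 and 0.164 TPM in high purity, with SOX1 at 3.66 and 0 TPM at stage 3 and PAX6 at 3.66 and 0.005 TPM at stage 4. Their part in the HOX levels was not tested. CDX4, the member higher in high purity in the multi-omic wells of day 2, was at 14.2 TPM in low and 10.9 TPM in high purity here. CDX1 kept its direction, at 83.1 and 137 TPM. For CDX2, where no class difference was found in the multi-omic wells of day 2, the values were 21.5 TPM in low and 9.16 TPM in high purity. H9 and IMR90-4 had the same CDX2 direction at stage 2, at 1.44 TPM or less. The low purity differentiation was labelled passage 69 in both experiments, yet on day 4 HOXB5 was at 0.13 TPM here and 30.0 TPM in the multi-omic mean, and HOXB1 at 1.08 and 51.8 TPM. HOXA13 was at 0.436 TPM or less on day 6 in both RNA-only WTC11 differentiations. The library kits differ between the experiments, so these levels were not tested against each other.

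IMR90-4 reached few members, and its purity classes differed by at least 1 on the log2(TPM + 1) scale only at stage 3. In high purity 6 members and in low purity 5 reached 1 TPM, among them CDX4 at stage 1 (2.60 and 2.63 TPM). HOXB2 was the most abundant, at 2.25, 33.9 and 19.8 TPM in high and 0.887, 17.9 and 19.97 TPM in low purity. HOXB4 was at 0.263, 7.91 and 4.07 TPM in high and 0.128, 1.08 and 2.60 TPM in low purity. At stage 3, 2 of 18 members were higher in high purity by at least 1 on the log2 scale and none lower. At stages 2 to 4 HOXB5 to HOXB9 held 11.3%, 2.95% and 1.06% of the HOXB sum in low purity. In high purity they held 3.65%, 1.94% and 0.931%. These shares rest on 21 reads or fewer of each gene per library. CDX1 was at 1.19 and 1.81 TPM at stage 2, on day 3, when H9 had 5.61 and 11.7 TPM and WTC11, on day 2, 137 and 83.1 TPM in high and low purity. The days differ between the lines, so these CDX1 levels are set side by side without a comparison. Epicardial and stromal markers summed to 17.7 to 49.98 TPM at stage 4 in the 4 differentiations of WTC11 and IMR90-4, against 489.1 TPM in low purity H9.

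**Figure D5:**
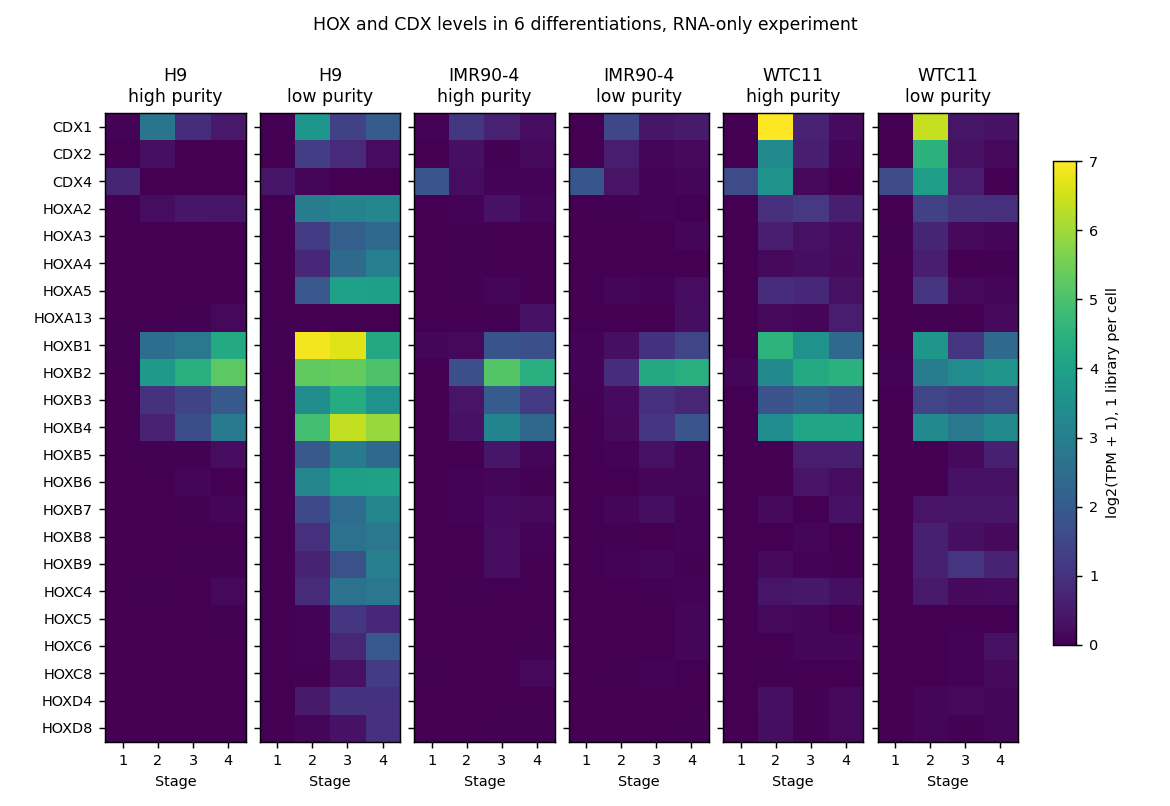
Level in the 24 RNA-only libraries of members that met the onset threshold in any group, as log2(TPM + 1), genes in cluster order against stage, 1 panel per line and purity class. Low purity H9 has HOXA2 to HOXA5, HOXB1 to HOXB9 and HOXC4 to HOXC6 on; in the other 5 differentiations between 5 and 11 members reach 1 TPM, HOXB2 and HOXB4 among them in each.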

How the data were processed

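The authors deposited gene counts and TPM for each experiment; the submitters' processing notes name STAR 2.5.3a, featureCounts 2.0.3 and hg38, and the annotation release and the counting options are not given in the sources used here. Deposited counts were whole reads with no normalization, and the deposited TPM scaled them by gene length and library. Names of count and TPM columns went together for 0 of 56 multi-omic libraries. Of the count columns 50 fitted a differently named TPM column and 6 fitted none. TPM was therefore used there, and the class and day of every multi-omic value rest on the TPM names. Multiplying TPM by gene length and dividing by a unit fitted per library gave whole reads for 100% of nonzero values (tolerance 0.05 reads). This covers the 37194 genes with a solved length, and 6194 genes had none. In the RNA-only experiment 24 of 24 columns matched. Broken lines (36) were left out of its counts, which then held 43382 genes. Multi-omic TPM of 25664 genes (1 TPM or more in 3 or more libraries) were TMM-scaled and tested as log2(TPM + 1) by limma-trend (limma 3.58.1, R 4.3.3), with 16 class-by-day means and 40 residual degrees of freedom; the classes were not compared on day 10, with 1 high purity well. RNA-only counts of 23848 genes passing filterByExpr were fitted with edgeR 4.0.16 (quasi-likelihood), with line-by-stage means as block for the classes (8 residual degrees of freedom), since the labels give a high and a low purity differentiation of each line, and differentiation means as block for the stages (15). DESeq2 1.42.0, other scalings, filters, pseudocounts, onset thresholds and leaving out each library were alternatives, and the fits were tested on simulated data. Single members were also compared by two-sided exact permutation tests. Members named are the CDX genes, the 3 highest of each cluster, and up to 6 called per direction and comparison; HOXA3, HOXA4, HOXA9, HOXC5 and HOXC9 lie outside this rule and were named after their values were seen. Members and lists were chosen with earlier results of these data known. Gene positions came from GENCODE v29, sequences from RefSeq (GRCh38.p14). Listed genes whose entries carried a numbered suffix, such as PBX2, RING1 and WNT3, were not used here. Counts cover all members, but the values of 1 member are not reported here.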

Additional observations from a re-analysis of the deposited data

Results flagged for a closer look

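Dixon's test was run on 102 groups of 4 wells of the named members, and chance flags about 1 in 20 such groups; 3 wells stood apart. HOXB2 was lowest in well 4 of the low purity class on day 2, at 14.28 TPM, with the other wells at 17.72 to 18.03 TPM. On day 13 of the low purity class, well 1 was the highest for HOXB9, at 9.549 TPM against 5.59 to 5.784 TPM, and for HOXD4, at 2.474 TPM against 0.9368 to 1.163 TPM.

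The change from day 0 differed between the 2 WTC11 differentiations for these members by limma's interaction term, on the log2(TPM + 1) scale, high minus low purity. On day 2 the values were 1.2 for CDX4, -2.0 for HOXB4 and -1.26 for HOXB3. On day 4 they were -4.4 for HOXB1, -3.19 for HOXB5, -3.17 for HOXB6, -2.33 for HOXB4, -1.87 for HOXB3 and -1.83 for HOXB2. On day 6 they were -3.93 for HOXB6, -3.58 for HOXB5, -3.49 for HOXB1, -3.12 for HOXB3, -2.93 for HOXB4 and -2.47 for HOXC8. On day 16 they were -5.15 for HOXC8, -3.27 for HOXB6, -3.22 for HOXB9, -3.04 for HOXB5, -2.99 for HOXC6 and -2.82 for HOXB7. The adjusted p ran from 1.27e-20 (HOXB3, day 6) to 0.000197 (CDX4, day 2). Apart from CDX4, these members had 4 reads or fewer in each day 0 well. Their values therefore nearly repeat the class differences of the same day and are not a separate result. On recovered reads edgeR called fewer of them, as given above. The 2 differentiations also differ in passage, and these parts cannot be told apart.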

How the results depend on the processing

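No direction was reversed among called results: of 3577 alternative values for 263 results of named members, 3468 kept their direction and side of the threshold and 109 fell below it (39 with edgeR on recovered reads, 34 when a library was left out, 27 with DESeq2). Only results called in the main fits were followed, so a value could keep or lose its call but not gain one. Counts of called members between the classes moved as follows. Without the size threshold they were 1, 11, 13 and 20 on days 0, 2, 4 and 8. With 0.1 in place of 1 added to TPM they were 1, 7, 15 and 20. On recovered reads edgeR gave 6, 15 and 21 and DESeq2 7, 15 and 20 on days 2, 4 and 8. For the change from day 0 in high purity wells, edgeR gave 16, 13, 13 and 14 and DESeq2 16, 13, 14 and 14 on days 2, 4, 6 and 16; 0.1 TPM added gave 10, 11 and 13 on days 4, 6 and 16, and no size threshold 10 on day 16. In low purity wells the same 4 settings (no size threshold, 0.1 TPM, edgeR, DESeq2) gave 14, 18, 17 and 16 on day 4 and 20, 22, 22 and 22 on day 6. For the interaction, edgeR gave 0, 0, 1 and 1 and DESeq2 1, 3, 4 and 10 on days 2, 4, 6 and 16; no size threshold gave 9 on day 2 and 0.1 TPM gave 11 on day 4. The cause of these moves was not tested. Leaving out a well gave 3 to 4, 7, 11 to 12, 13 to 15, 18 to 19 and 17 to 19 members on days 2, 4, 6, 8, 13 and 16. Between the lines at stage 3, leaving out a line gave 0 to 2. Without TMM scaling the median of all genes shifted to -0.18, -0.13 and -0.12 on days 8, 13 and 16, and the share of calls higher in high purity went from 38.3% to 25.3%, 42.2% to 30.6% and 43% to 28.1%; members kept their directions. Well numbers did not pair the classes (correlations of deviations -0.013 to 0.032), and with well number as replicate block 15 members were called on day 8 and 18 on day 13, with no change on the other days. Without the replicate block of cell lines 0 members were called between the classes, and 17, 23 and 23 at stages 2, 3 and 4 against stage 1. A threshold of 5 TPM for onset left 13 members in the low purity class, 2 and 1 in high and low purity IMR90-4 and 7 in low purity WTC11; 2 TPM left 3 in low purity IMR90-4 and 7 in low purity WTC11. In multi-omic wells 1 read was worth up to 0.555 TPM, which limits the onset of low members.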
